A study of Saccharomyces cerevisiae with 48 samples.

Results

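The 67 mitochondrial ribosomal protein genes were all nuclear protein-coding genes whose standard symbol is MRPL, MRPS, MRP or RSM followed by a number, out of 6002 nuclear protein-coding genes in the gene table. By prefix they were 34 MRPL, 9 MRPS, 13 MRP and 11 RSM genes. The table gave 65 of them a unified ribosomal protein name of the large or small mitochondrial subunit, and RSM22 and MRP8 had none. RSM22 was counted with the small subunit by its prefix, which made 38 large-subunit and 28 small-subunit genes, with MRP8 left unassigned. The genes lay on 14 of the 16 chromosomes, with at most 12 on 1 chromosome. Their coding bodies were short, with a median of 699 bp and a range of 213 to 1887 bp, against a median of 1200 bp over all 6002 genes.

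Mitochondrial ribosomes translate the few messages of the mitochondrial genome, which encode core subunits of the respiratory chain and ATP synthase. In yeast their ribosomal RNAs are made inside the organelle, while nearly all of their proteins are encoded in the nucleus, made in the cytosol and imported. These genes are transcribed by RNA polymerase II at modest rates and are dispersed in the genome, unlike the very highly transcribed genes of the cytosolic ribosome.

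The study mapped RNA polymerase II and underwound DNA in budding yeast carrying mutations in Sen1, an RNA-DNA helicase of the termination pathway for non-coding transcripts, and Rrm3, which helps replication forks pass tightly bound proteins. Rpb1, the catalytic subunit of that polymerase, was mapped by chromatin immunoprecipitation with the 8WG16 antibody in S phase in 4 strains, labelled wild type, sen1, rrm3 and sen1rrm3. Biotinylated trimethylpsoralen (bTMP), which intercalates preferentially into underwound DNA, was mapped in 20 cultures, namely those 4 strains in S phase, in logarithmic growth and at 32 °C, the 4 strains combined with top1 in logarithmic growth and the 4 combined with top2-1 at 32 °C. Top1 and Top2 are topoisomerases, enzymes that relax supercoiled DNA. The labels name top2-1 but give no allele for sen1, rrm3 or top1. All cultures were first grown to log phase in YPG medium. For S phase, cells were arrested in G1 with alpha factor in YPD medium and collected 45 to 50 min after release at 23 °C. Log cells had 2.5 h in YPD. Cells of the 32 °C groups had 1.5 h in YPD at 25 °C and then 1 h at 32 °C, a step the protocol gives for the top2 combinations, and the strains without top2-1 are labelled 32 °C as well. Each group had 1 library, so no value below has a replicate of its own culture.

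The deposited data were lists of peaks, and every value below is cover, the percentage of a gene's base pairs that lay under peaks. The 4 Rpb1 lists held 2016 to 2136 peaks over 18.9% to 20.2% of the nuclear genome. In 14 of the 20 bTMP lists peaks came as close as 156 to 166 bp to each other and had median widths of 234 to 262 bp. In the other 6, neighbouring peaks were never nearer than 591 to 631 bp and median widths were 599 to 685 bp. These 6 lists with widely spaced peaks were the 4 S-phase lists and the lists labelled 32 °C sen1 and 32 °C sen1rrm3. The peaks of those 2 lists carried names of the S-phase style, and each list overlapped most with the S-phase list of its own strain, sharing 0.656 of the joint covered base pairs for sen1 and 0.761 for sen1rrm3. Mean differences and the named per-gene differences over pairs that use them are therefore given with and without them, as are the members' call counts for sen1 and rrm3. The top2-1 call and the shares of all genes called are given with them only. The S-phase wild-type bTMP list also stood apart, with an overlap of at most 0.355 with any other list of wide spacing. Read depth is unknown.

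Rpb1 covered little of these genes in any strain, and what it covered lay mostly at their 3′ ends. In wild type, 6 of the 67 genes (8.96%, exact 95% binomial interval 3.36% to 18.5%) had at least 50% of the body under peaks, against 21.9% of all genes. The count was 6 in sen1, where 24.0% of all genes reached it, and 5 in rrm3 and in sen1rrm3, where 21.6% and 22.1% of all genes did. Among the 4361 genes within the members' range of lengths the shares were 23.9% in wild type and 26.5% in sen1. Mean body cover of the 67 genes was 12.4% in wild type, 16.9% in sen1, 12.9% in rrm3 and 12.8% in sen1rrm3, against 23.0%, 24.6%, 22.8% and 23.0% over all genes. Intervals on shares cover counting error only and take each gene as one draw.

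Other genes of mitochondrial function differed among themselves in the same lists. Of 35 nuclear genes of the respiratory chain and ATP synthase, 27 had at least 50% of the body under Rpb1 in wild type, 19 in sen1, 26 in rrm3 and 24 in sen1rrm3. Of 20 genes for mitochondrial translation factors and tRNA synthetases the counts were 2, 3, 2 and 2 in the same order, and of 13 mitochondrial ribosomal protein genes with other symbols, such as PET123 and NAM9, they were 4, 4, 4 and 2. Of 138 cytosolic ribosomal protein genes, 137 reached the mark in every strain. These lists are given side by side and their differences were not tested.

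The 3′ position was seen when each body was cut into 3 equal parts. In wild type the mean cover of the 67 genes was 3.99% in the first part, 7.96% in the middle and 25.2% in the last, while all genes had 17.1%, 22.8% and 29.2%. Only 3 of the 67 genes had any Rpb1 in the first part in wild type and in rrm3, and 25 and 23 had some in the last. In wild type those 3 were MRP13, RSM27 and MRPL39, under peaks with more base pairs in the neighbours RPL11B, RPS0A and ERG6. In sen1 the first part rose to a mean of 10.8%, with 10 genes touched there, and in sen1rrm3 to 7.06%, with 9 genes touched. Among these, MRP13, MRPL39, MRPL17 and MRP8 in both strains, MRPL49 in sen1 and RSM27 in sen1rrm3 lay under peaks with more base pairs in a neighbour. No value within the members' range of lengths was computed for these parts. Over all genes the first part was at 18.6% in sen1 and 16.5% in sen1rrm3, against 17.0% in rrm3. In the 50 bp that begin at the coding start, mean cover of the 67 genes was 4.48% in the strains without sen1, 12.5% with sen1 alone and 8.33% with both mutations, and all genes stood at 12.3%, 13.4%, 14.4% and 12.8% in wild type, rrm3, sen1 and sen1rrm3. The difference between the strains with and without sen1 near the start was seen in both backgrounds but rests on 1 library per strain and was not tested.

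**Figure D1:**
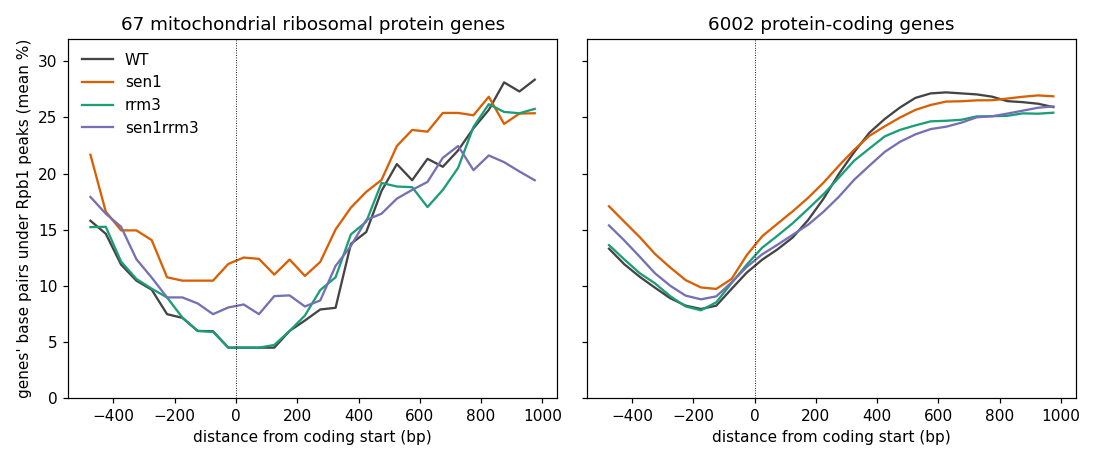
Mean percentage of base pairs under Rpb1 peaks in bins of 50 bp from 500 bp before to 1000 bp after the coding start, for the 67 mitochondrial ribosomal protein genes (left) and all 6002 protein-coding genes (right), with 1 line per strain in S phase. On the left, wild type and rrm3 lie together at 4.48% over the start, while sen1 reaches 12.5% and sen1rrm3 8.33% in the bin that begins there. Cover includes peaks with more base pairs in a neighbouring gene.

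Many of the touched genes lay under a peak assigned to a neighbour. A peak was assigned to the gene that held more of its base pairs than any other single gene. This assignment was devised once the peaks had been looked at. In wild type 25 genes had Rpb1 in the body, and for 12 of them (48.0%) every such peak had more base pairs in another gene. The share was 30.5% of touched genes over all genes. An assignment by base pairs can favour the longer gene, and members had a median body of 699 bp against 1200 bp. No share within the members' range of lengths was computed, and the difference was not tested. The counts were 17 of 31 in sen1, 11 of 23 in rrm3 and 15 of 27 in sen1rrm3. The neighbour was the convergent gene downstream for 10 of the 12 in wild type and for 12 of the 17 in sen1, and otherwise the gene upstream on the same strand. For 3 of the 12 in wild type it was a gene of the cytosolic ribosome. Counting only peaks assigned to the gene itself, 2 genes had at least 50% of the body covered in wild type (RSM25 and RSM7). There were 2 in rrm3 (MRP13 and RSM7), but 5 in sen1 (MRPL36, MRPL11, RSM25, MRPL4 and MRPS17) and 4 in sen1rrm3 (MRPL36, MRPL11, RSM25 and MRPS12). Over all genes the same count gave 18.2%, 17.6%, 19.5% and 18.4% in wild type, rrm3, sen1 and sen1rrm3. The wild-type RSM7 peak of 1218 bp was shared, with 391 bp in RSM7, 379 bp in YJR112W-A and 231 bp in NNF1.

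The 6 genes with the highest mean Rpb1 cover show both situations. MRPL39, a large-subunit protein gene of 213 bp and the shortest member, was covered at 100% in all 4 strains, by a peak that had 1126 to 1152 bp in ERG6, the sterol methyltransferase gene upstream. MRP2, a small-subunit gene, stood at 56.9%, 48.3%, 59.2% and 42.8% in wild type, sen1, rrm3 and sen1rrm3. Its peak had 149 to 206 bp in MRP2 and 630 bp in RHO1, the convergent gene downstream, in every strain. RSM25, also of the small subunit, was covered at 51.8%, 93.7%, 44.8% and 95.6% in the same order by a peak that touched no other gene. MRPL36, of the large subunit, followed the same pattern at 22.7%, 94.2%, 18.5% and 76.2%. The remaining 2 were RSM27 and MRP13, which lie downstream of cytosolic ribosomal protein genes.

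**Figure D2:**
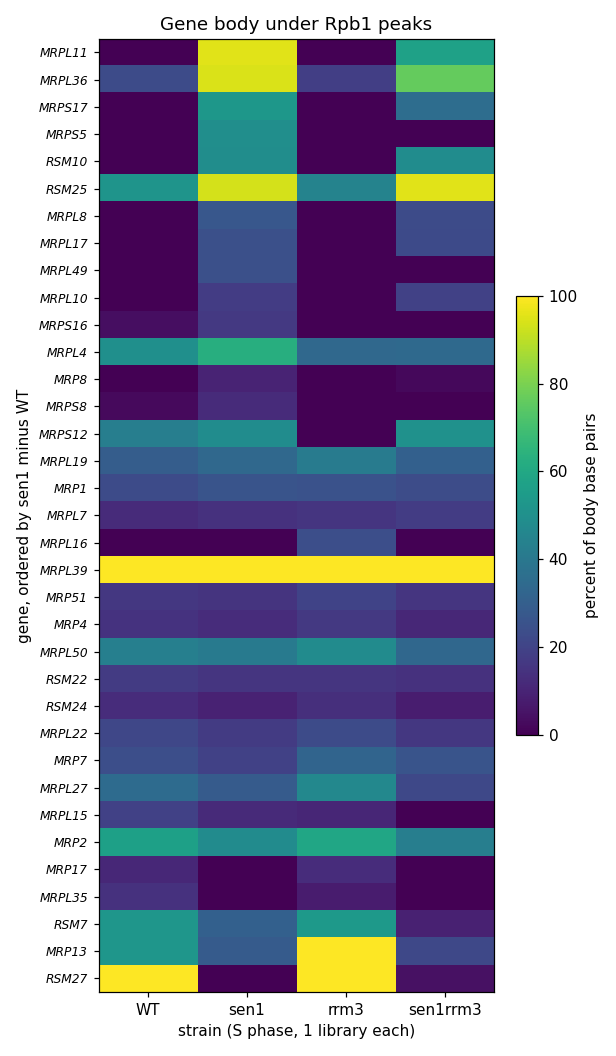
Percentage of the coding body under Rpb1 peaks in each S-phase strain for the 35 mitochondrial ribosomal protein genes with cover in at least 1 strain, ordered by sen1 minus wild type. The top rows (MRPL11 at 95.5% and MRPL36 at 94.2% in sen1) are bright in both sen1 strains, the bottom row (RSM27) is at 100% in wild type and rrm3 only, and MRPL39 is at 100% throughout.

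As for presence alone, of the 67 genes, 35 (52.2%) had Rpb1 in the body in at least 1 strain and 18 (26.9%) in all 4, against 49.5% and 33.6% of all genes. The other 32 genes had none in any strain. Large-subunit genes had a mean body cover of 9.77%, 16.1%, 10.6% and 12.6% in wild type, sen1, rrm3 and sen1rrm3, and small-subunit genes 16.3%, 18.2%, 16.5% and 13.6%. The subunits were not tested against each other.

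With sen1, 4 of the 67 genes crossed between no Rpb1 and at least 50% of the body in at least 1 comparison. Gained genes had 0% of the body under peaks in the reference strain and 50% or more in the mutant, and lost genes the reverse. In sen1 against wild type, MRPL11 and MRPS17 were gained, where 1.88% of all genes were, and RSM27 was lost, where 0.716% were. In sen1rrm3 against rrm3, MRPL11 and MRPS12 were gained against a background of 1.32%, and none was lost against 0.633%. In sen1rrm3 against wild type, MRPL11 was gained against 1.07% and none lost against 0.716%. None of the 67 was gained or lost in rrm3 against wild type, where 0.133% and 0.217% of all genes were, or in sen1rrm3 against sen1, where 0.217% and 0.616% were. With 67 genes, shares of 1 to 2 genes are close to those of all genes.

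MRPL11, which encodes the large-subunit protein uL10m, was free of Rpb1 peaks in wild type and in rrm3, while its cover was 95.5% in sen1 and reached 57.3% in sen1rrm3. The sen1 peak on chromosome IV, 98453 to 99190, ran from 22 bp before the coding start to 715 bp after it in a body of 750 bp, and the sen1rrm3 peak, 98727 to 99156, lay wholly inside the body. In wild type the nearest Rpb1 peak was 4535 bp away. By the authors' score the sen1 peak ranked at percentile 52.8 of its list and the sen1rrm3 peak at percentile 36.4, so neither was among the strongest. MRPS17, for the small-subunit protein uS17m, had no Rpb1 in wild type or rrm3, and its cover by a peak inside the body came to 52.8% (sen1) and 35.9% (sen1rrm3), at percentiles 35.4 and 17.3 of score. MRPS12, for the small-subunit protein uS12m, was at 42.6% in wild type, 48.5% in sen1, 0% in rrm3 and 50.4% in sen1rrm3, and its peaks were narrow (197 to 233 bp) and among the weakest 13.4% of each list. Its gain in sen1rrm3 against rrm3 therefore sets a present peak against the only list without one.

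RSM25 and MRPL36 were covered in every strain, and their peaks reached farther toward the start in both sen1 strains. The RSM25 peak began 383 bp after the start in wild type and 439 bp in rrm3, but 41 bp before it in sen1 and 11 bp before it in sen1rrm3. Its other end lay at 858 and 853 bp without sen1 and at 744 and 759 bp with it. The MRPL36 peak began at 413 bp in wild type and 435 bp in rrm3, and at 31 bp in sen1 and 127 bp in sen1rrm3. No other gene lay under any of these peaks. MRPL8, a large-subunit gene, had a peak over its start only with sen1, spanning from 4 bp before to 194 bp after it in sen1 and from 9 bp before to 164 bp after in sen1rrm3, and covering 27.2% and 23.0% of the body. These shifts of peak ends were not tested, since each strain had 1 list.

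At RSM10, MRPL17 and MRPL49 the Rpb1 seen with sen1 came with the peak of a neighbour. RSM10 was at 0% without sen1 and at 49.0% in sen1 and 48.7% in sen1rrm3. The peak there, on chromosome IV from 540115 to 541917 in sen1, also held all 99 bp of the box C/D snoRNA gene SNR47 and 603 bp of the uncharacterised gene YDR042C, which lies between them. In wild type the peak at the snoRNA, 541129 to 541948, stopped 714 bp short of RSM10. MRPL17 lies 301 bp downstream of NRD1, which encodes an RNA-binding partner of Sen1 in termination and is known to be repressed by that same pathway. The NRD1 peak ended 275 bp before MRPL17 in wild type and 274 bp before it in rrm3, and in sen1 and sen1rrm3 it ran 206 and 190 bp into the gene (24.3% and 22.5%). MRPL17 was chosen for mention after its neighbour had been seen. MRPL49 had 24.3% in sen1 and none in the other strains, under a peak with 497 bp in PHS1, an enzyme gene of fatty acid elongation.

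RSM27, for the small-subunit protein mS33, went the other way. It was covered at 100% in wild type and rrm3, at 4.50% in sen1rrm3 and not at all in sen1. The covering peak belongs to RPS0A, a gene of the cytosolic small ribosomal subunit 386 bp upstream, and held 1214 bp of that gene in every strain where it reached RSM27. In wild type it ended 547 bp after the RSM27 start, past the 333 bp body, and in sen1 it ended 3 bp before it. MRP13, a small-subunit gene 240 bp downstream of RPL11B, was at 52.5% in wild type, 28.5% in sen1, 100% in rrm3 and 21.9% in sen1rrm3. A second peak of 322 bp, with 308 bp inside MRP13, was present in wild type, was joined to the RPL11B peak in rrm3, and was not present in either sen1 strain. RSM7 (52.6%, 30.8%, 53.6% and 9.14% in wild type, sen1, rrm3 and sen1rrm3), MRP17 (11.1%, 0%, 12.9% and 0%) and MRPL35 (14.4%, 0%, 7.61% and 0%) were likewise lower in both sen1 strains. The MRP17 cover was 44 bp in wild type and 51 bp in rrm3 of a peak with 1206 bp in AUR1, the convergent gene downstream. In sen1 and sen1rrm3 the nearest peak lay 281 and 23 bp downstream of MRP17.

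**Figure D3:**
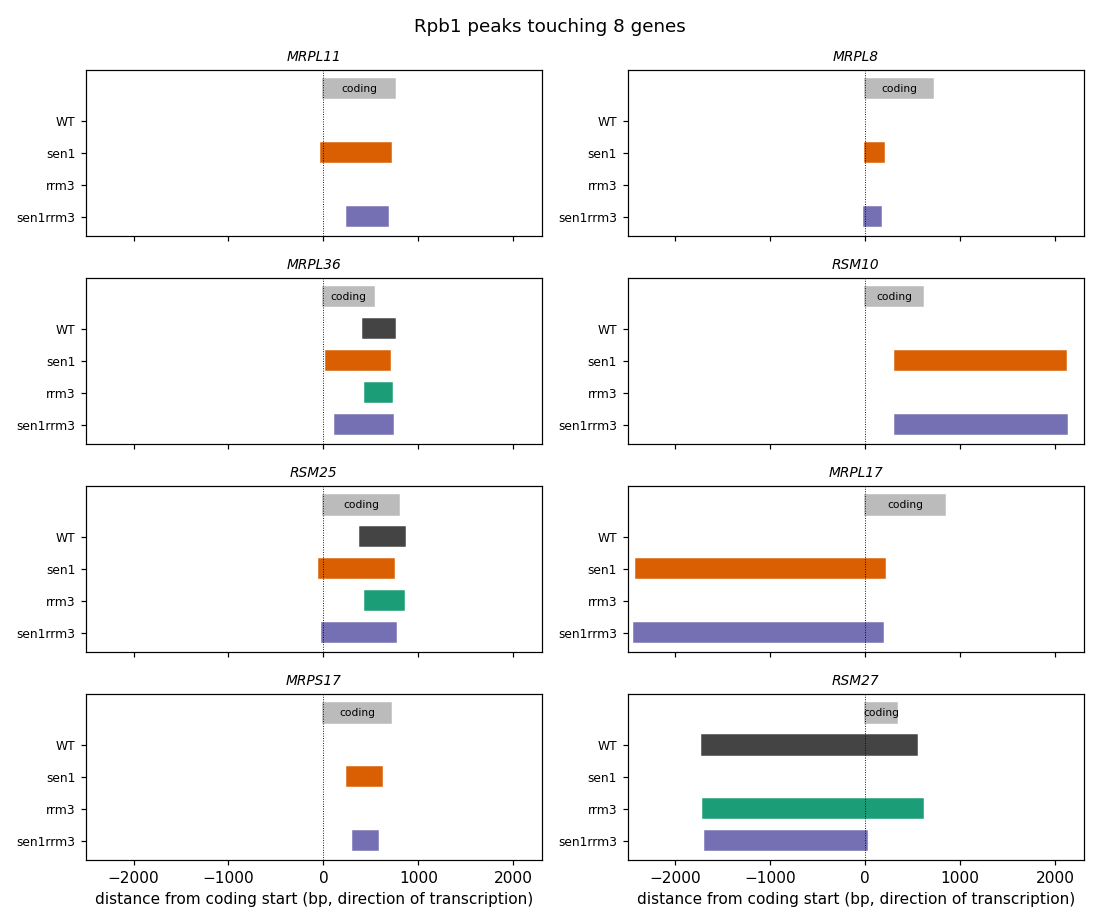
Rpb1 peaks that touch 8 mitochondrial ribosomal protein genes, drawn as bars by strain along the distance from the coding start in the direction of transcription, with the coding body in grey. In the left column sen1 peaks lie over MRPL11, MRPL36, RSM25 and MRPS17. In the right column they lie over the start of MRPL8, reach RSM10 from downstream and MRPL17 from upstream, and stop short of RSM27, where the wild-type and rrm3 bars run through.

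Taken by size alone, body cover was at least 10 points (percentage points) higher in both sen1 comparisons (sen1 against wild type and sen1rrm3 against rrm3) in 8 of the 67 genes, MRPL36, MRPL11, RSM10, RSM25, MRPL8, MRPS17, MRPL10 and MRPL17, where 7.9% of all genes did so. It was at least 10 points lower in both in 4 genes, MRP13, RSM27, RSM7 and MRP17, against 6.13% of all genes. In both rrm3 comparisons (rrm3 against wild type and sen1rrm3 against sen1) none was higher, against 0.75% of all genes, and only MRPL4 was lower, against 1.57%. The median difference over the 67 genes was 0 in all 4 comparisons, as over all genes. The mean difference was 4.52 points in sen1 against wild type (all genes 1.57) and -0.04 points in sen1rrm3 against rrm3 (all genes 0.17), so the higher mean in sen1 was not seen in the rrm3 background.

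bTMP peaks touched these genes less often than the average gene in every one of the 14 lists with closely spaced peaks. In these lists 17 to 31 of the 67 genes, with a median of 25 (37.3%), had a peak in the body or the 300 bp upstream, against 44.2% to 59.5% of all genes with a median of 50.8%. In the same lists the median was 34.3% for the nuclear genes of the respiratory chain and ATP synthase and 35.9% for cytosolic ribosomal protein genes. It was 42.3% for mitochondrial ribosomal protein genes with other symbols and 50.0% for mitochondrial translation factors and tRNA synthetases. A low share was therefore not particular to the 67 genes. Genes within the members' range of lengths stood at a median of 46.6%. In the 6 lists with widely spaced peaks, 37 to 42 genes were touched, with a median of 38 (56.7%) against 66.1% of all genes, and 62.9% within that range of lengths. The median was 38 as well over the 4 S-phase lists alone. The lowest count, 17 genes, was in rrm3 at 32 °C, and the highest among lists of that kind, 31, was in wild type at 32 °C and in top1. These are shares within single lists and were not tested.

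Mean cover differed less than the share of genes touched. In the lists with closely spaced peaks the mean cover of the 67 genes was 6.85% to 13.0%, and of all genes 7.97% to 12.8%. In the lists with widely spaced peaks it was 25.2% to 31.0%, against 21.7% to 28.7%. The medians over these lists were 28.87% and 26.15%, so the order was the reverse of that for the share touched. The list labelled 32 °C sen1rrm3 went the other way, at 25.2% against 26.3%. Around the coding start, cover in the closely spaced lists was highest in the first 50 bp of the body at 18.0%, and over all genes in the 50 bp just upstream at 18.2%. Within the window from 500 bp before to 1000 bp after the start, the lowest value for these genes was 4.82%, in the 50 bp that begin 400 bp upstream. Over all genes the lowest value was 7.57%, in the 50 bp that begin 250 bp after the start. Mean cover of the 300 bp upstream had a median of 10.3% over those lists against 14.3% for all genes.

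A peak was present in all 20 lists at 7 genes (10.4%, exact 95% interval 4.30% to 20.4%) and in no list at 7 others, against 12.5% and 8.53% of all genes. The median gene had a peak in 7 lists, against 12 over all genes and 10 among genes within the members' range of lengths. In the 14 closely spaced lists alone, 12 genes were touched every time (17.9%, all genes 19.4%) and 26 never (38.8%, interval 27.1% to 51.5%; all genes 21.7%, and 25.6% within the range of lengths). Among the genes never touched in 20 lists were RSM10, MRPL8, MRP10 and MRP8. RSM10 and MRPL8 are also genes at which Rpb1 was seen only with sen1.

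The sites at MRP2 and MRP21 kept their place in the closely spaced lists. MRP2 had 42.9% to 51.5% of its body and upstream region covered in the 14 closely spaced lists, with a median of 45.1% and peak centres at -126.5 to -94 bp from the start. MRP21, a small-subunit gene with a peak in 19 lists, ranged over only 43.6% to 47.6% in the 14, with centres at -122 to -105.5 bp in the 196 bp that separate it from the divergent gene MAP2. MRPL4 ranged from 30.3% to 62.7% with a median of 49.5%, RSM18 from 22.4% to 51.7% with a median of 43.0%, MRPS9 from 19.3% to 39.3% with a median of 30.8%, and RSM25 had a lowest value of 22.2% and a median of 24.1%. Peak centres varied more at MRPL4 (-87.5 to 752 bp from the start), MRPS9 (54 to 847 bp) and RSM25 (-14 to 758.5 bp) than at MRP2. A steady position was not particular to MRP2 and MRP21. Centres in the same 14 lists lay at -358 to -351 bp at MRP1 and at 8 to 26.5 bp at MRPL1. MRP17, for the small-subunit protein bS6m, was touched at its edge by a peak that covered 3.59% to 4.88%, with centres 487 to 527.5 bp after the start, beyond the 396 bp body. In 4 of the 6 widely spaced lists (S-phase rrm3 and sen1rrm3 and the lists labelled 32 °C sen1 and sen1rrm3) MRP17 was covered at 100%, and at 6.03% and 4.02% in S-phase wild type and sen1.

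**Figure D4:**
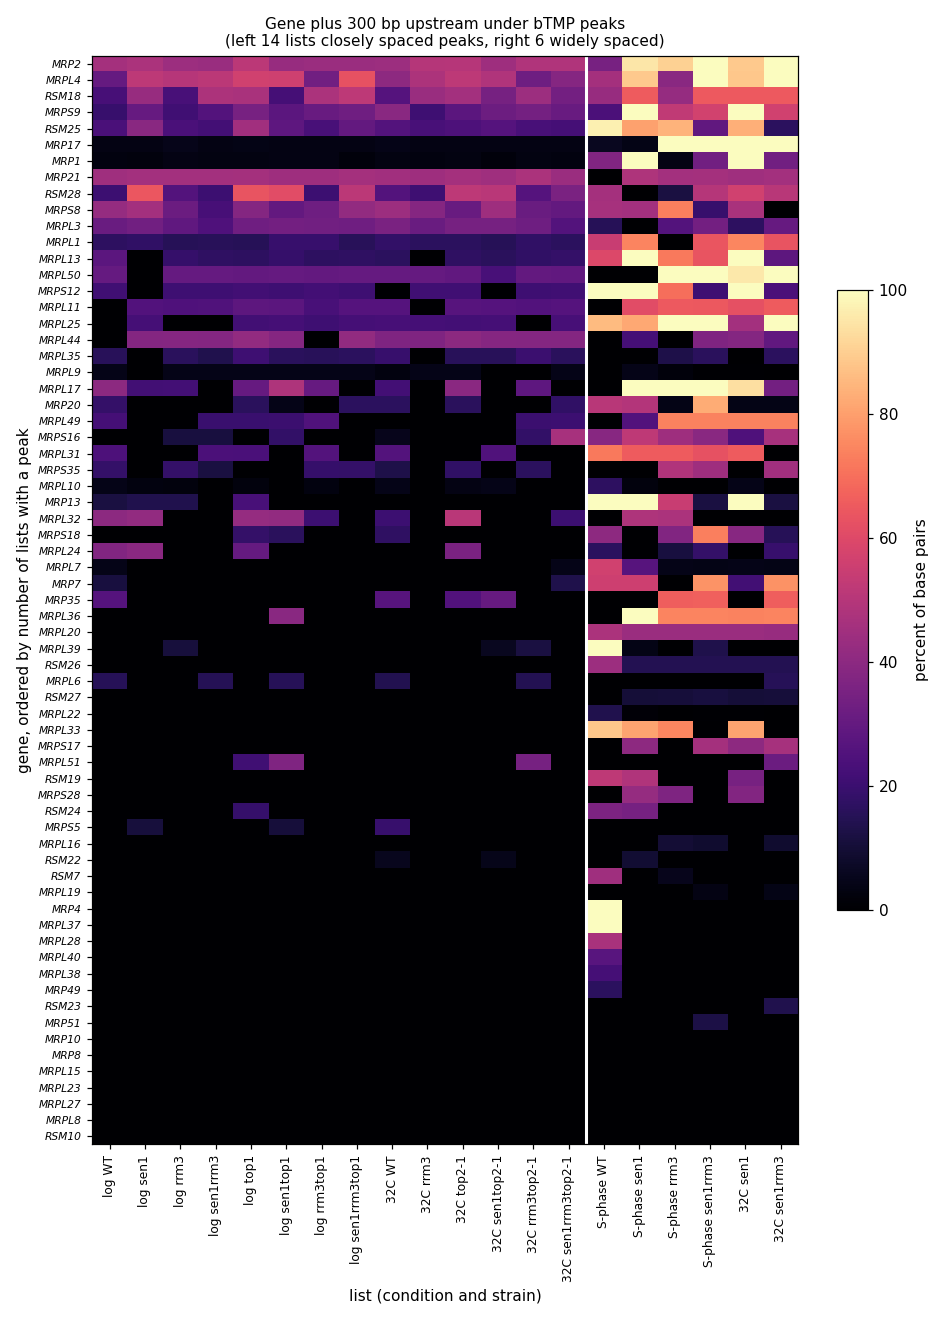
Percentage of base pairs of the body and 300 bp upstream under bTMP peaks for the 67 genes (rows, ordered by the number of lists with a peak) in the 20 lists (columns, with the 14 closely spaced lists left of the white line and the 6 widely spaced lists right of it). The upper rows such as MRP2 and MRPL4 are filled in all 20 lists, the 7 lowest rows in none, and MRP4 and MRPL37 are at 100% in S-phase wild type alone.

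The S-phase wild-type list held sites seen nowhere else. Of 8 genes with a peak in exactly 1 list, 6 had it there, namely MRPL37 and MRP4 (both 100%), MRPL28 (46.9%), MRPL40 (27.2%), MRPL38 (22.4%) and MRP49 (16.7%). Over all genes, 153 of 335 such single peaks (45.7%) were in that list. The remaining 2 were RSM23, in the list labelled 32 °C sen1rrm3, and MRP51, in S-phase sen1rrm3. MRPL11, with a peak in 17 of 20 lists, had none in S-phase wild type and 61.0%, 64.9% and 64.7% in S-phase sen1, rrm3 and sen1rrm3. Its 2 other absences were log wild type and 32 °C rrm3, and its bTMP values in the other 12 closely spaced lists were 23.2% to 28.5%.

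No mitochondrial ribosomal protein gene changed with sen1 or rrm3 in a way that held over the 10 pairs of bTMP lists that differ in that mutation. The call asked for a move of 10 points or more in one direction in 7 or more of the 10 pairs, with no more than 1 such move in the opposite direction. For sen1, none of the 67 was called higher, against 0.283% of all genes, or lower, against 0.0167%. For rrm3, none was higher, against 0.2%, or lower, against 0.417%. Without the lists labelled 32 °C sen1 and sen1rrm3 the number of members called was also 0 for sen1 and 0 for rrm3. Strain backgrounds stand in for replicates here. An exact two-sided sign-flip permutation test per gene, with Benjamini-Hochberg adjustment over 6002 genes, called 0.0% of all genes for sen1 and 0.0% for rrm3. At an unadjusted p under 0.05 it gave 261 genes (4.35%) for sen1, with 3 of the 67 (4.48%). For rrm3 it gave 330 genes (5.50%), with 4 of the 67 (5.97%). The members' shares were thus close to those of all genes. The smallest p of 10 pairs is 0.00195, so at least 235 genes would have to reach it for any to pass after adjustment, and the test could show only a change shared by many genes.

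For sen1 the 3 genes with an unadjusted p under 0.05 were MRPL4, MRPL11 and MRPS9, all higher. MRPL4, a large-subunit gene, differed by 25.8 ± 24.1 points (SD over 10 pairs, exact sign-flip p = 0.0117, adjusted p = 0.854) and was higher by at least 10 points in 6 of 10 pairs. MRPL11 differed by 19.0 ± 26.5 points (higher in 7 of 10 pairs) and MRPS9 by 18.9 ± 28.7 points (8 of 10). In each of these 2 genes 4 pairs moved by at least 10 points. In all 3 genes, 2 of the pairs that did so used the lists labelled 32 °C sen1 and sen1rrm3, whose peaks are wider than those of their partners. Over the 8 pairs without those lists MRPL4 differed by 19.7 ± 23.2 points (exact sign-flip p = 0.0469, adjusted p = 1.0), MRPL11 by 11.2 ± 22.0 points (p = 0.156) and MRPS9 by 11.6 ± 26.7 points (p = 0.172), so 1 of the 3 kept an unadjusted p under 0.05.

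For rrm3 the 4 genes were MRPL10, RSM25, MRPL50 and MRPS35. MRPL10 differed by -4.05 ± 4.87 points over 10 pairs (exact sign-flip p = 0.00781, adjusted p = 0.805) and was lower in 8 of 10. RSM25 differed by -17.6 ± 23.4 points, lower in 8 of 10 pairs and by at least 10 points in 5. MRPL50, a large-subunit gene, differed by 24.1 ± 41.0 points, higher in 7 of 10 pairs but by at least 10 points in only 3, with a median of 2.29 points. MRPS35, a small-subunit gene, differed by 17.3 ± 22.1 points, with 6 pairs higher and 1 lower by at least 10 points, 1 pair short of the mark. MRPL32, for the large-subunit protein bL32m, was lower with rrm3 by at least 10 points in 7 pairs but higher in 2, namely S-phase rrm3 against wild type and 32 °C sen1rrm3top2-1 against sen1top2-1, with a mean of -19.7 ± 32.8 points. Over the 9 pairs without the lists labelled 32 °C sen1 and sen1rrm3, RSM25 differed by -12.1 ± 16.7 points, MRPL10 by -4.02 ± 5.16, MRPL50 by 26.3 ± 42.9, MRPS35 by 14.2 ± 21.1 and MRPL32 by -21.9 ± 34.0 points. MRPS35 then had an exact sign-flip p of 0.0938 and lost its unadjusted p under 0.05.

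Averaged over the 67 genes, cover was lower with rrm3 in 9 of 10 pairs, by 2.21 ± 1.88 points (SD over pairs), while over all genes it was lower in 7 of 10 by 0.53 ± 2.07 points. Pair by pair, the members' mean ranged from -5.82 to 0.56 points. Without the lists labelled 32 °C sen1 and sen1rrm3 it was -1.80 ± 1.48 points over 9 pairs, lower in 8. Cytosolic ribosomal protein genes were lower in 8 of 10 pairs by 3.32 ± 2.89 points and the nuclear respiratory genes in 8 of 10 by 2.47 ± 3.36 points, whereas the mitochondrial translation factor genes stood at 0.04 ± 2.75 points. The 13 mitochondrial ribosomal protein genes with other symbols stood at -5.6 ± 9.34 points, lower in 7 of 10 pairs and higher in 3. No list occurs in more than 1 of the 10 pairs, but pairs share strain backgrounds and conditions, and no p is given for a mean over the genes. With sen1 the members' mean difference was 4.01 ± 8.27 points, higher in 6 of 10 pairs, and all genes had 3.79 ± 7.60. The 2 pairs that set a closely spaced against a widely spaced list gave 20.5 and 18.3 points. Without them the mean was 0.15 ± 1.60 points over 8 pairs, higher in 4.

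**Figure D5:**
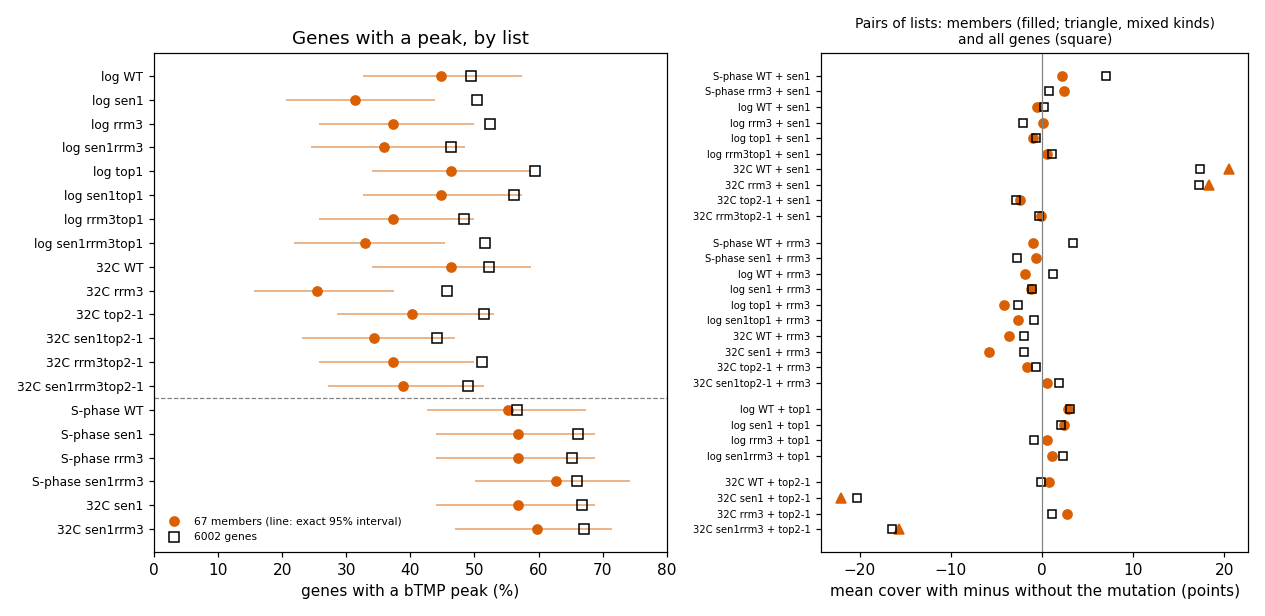
Left, percentage of the 67 genes (filled, with exact 95% binomial interval) and of all 6002 genes (open squares) with a bTMP peak in each list, with closely spaced lists above the dashed line; the filled points lie left of the squares in all 20 lists. Right, difference in mean cover for each pair of lists that differ in sen1, rrm3, top1 or top2-1, for the 67 genes (filled, with triangles where a closely and a widely spaced list were paired) and all genes (squares); with rrm3 the filled points lie left of 0 in 9 of 10 pairs.

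The topoisomerase mutations were each represented by 4 pairs, for which the smallest possible two-sided p is 0.125, so no test was made. With top1 the members' mean cover was higher in 4 of 4 pairs, by 1.74 ± 1.09 points, and all genes were higher by 1.66 ± 1.71 points in 3 of 4. Relative to the share of the genome under peaks, which was larger in 3 of the 4 top1 lists than in their partners, the members had less cover in 3 of 4 pairs, and the mean log2 ratio was -0.04 ± 0.18. No member moved by at least 10 points the same way in all 4 pairs, against 1.15% of all genes higher and 0.333% lower. MRPL3, a large-subunit gene, was the only member that moved the same way in 4 of 4 pairs, by 3.68 ± 3.38 points. With top2-1 the mean was -8.56 ± 12.2 points, lower in 2 of 4 pairs. Those 2 pairs used the lists labelled 32 °C sen1 and sen1rrm3. The other 2 gave 1.78 ± 1.37 points, so the direction turned without those lists. No member was called, against 0.0833% of all genes higher and 0.9% lower. MRPL44 was higher in 4 of 4 top2-1 pairs by 3.16 ± 3.79 points, and MRPL50 and MRPL25 were lower in 4 of 4 by 36.0 ± 40.9 and 30.9 ± 32.4 points, both with the lists labelled 32 °C sen1 and sen1rrm3 in 2 of the 4 pairs. In the other 2 pairs MRPL50 differed by -0.56 ± 0.20 points, MRPL25 by -11.6 ± 15.2 points and MRPL44 by 1.88 ± 1.33 points.

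Rpb1 and bTMP in S phase could be compared in the same strain. In wild type 29 of the 67 genes had an Rpb1 peak in the body or upstream region and 17 of these (58.6%) also had a bTMP peak, as did 20 of the 38 without Rpb1 (52.6%). In sen1 the shares were 61.8% and 51.5%, in rrm3 51.9% and 60.0%, and in sen1rrm3 64.3% and 61.5%. Over all genes bTMP was the more frequent where Rpb1 was present in every strain, at 62.2% against 52.5% in wild type and 70.7% against 62.2% in sen1. The order was reversed among the 67 genes in rrm3, a difference that was not tested.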

How the data were processed

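Peak lists from 24 libraries were analysed, 4 of Rpb1 and 20 of bTMP, and the 24 inputs were not analysed here. Each list gives intervals and a score per peak, both deposited by the authors. The deposited score was used only to rank peaks within a list. Bowtie2, Picard, SAMtools and deepTools are named in the submitters' processing notes, without versions, while no source used here names the peak caller or the genome build. Peaks were laid on the gene coordinates of the RefSeq R64 table. As a check of that placement, wild-type Rpb1 covered 99.3% of the base pairs of cytosolic ribosomal protein genes, and 79.9% and 85.1% with a shift of 400 bp either way. Cover, the share of base pairs under peaks, was computed for each body and for the 300 bp upstream in Python 3.11.15 with numpy 2.4.6, pandas 2.3.3 and scipy 1.17.1. The sign-flip test was tested on simulated data.

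Named were the 6 genes with most Rpb1, all gained or lost genes, the 6 with the largest sen1 difference each way with its sign kept in the rrm3 background, the 6 with a bTMP peak in most lists, the called genes, up to 3 each way with 1 sign in all 4 topoisomerase pairs, MRP8, and at most 4 never touched. Other genes named were chosen after their values were seen. The members and lists were chosen with earlier results of these data known. MRP35 was put in the large subunit by the table's unified name. Groups have 1 library each, so p-values measure only the spread between pairs of lists. Read depth is unknown, so no interval from depth is given. Sequences were not used here.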

Additional observations from a re-analysis of the deposited data

How the results depend on the processing

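Of the values under alternatives, 33 moved, meaning a count by over 1.5 times or a mean by over 1 SD between pairs, or for a log2 ratio a changed sign, and 92 did not. The SDs of the sen1 and top2-1 means are wide, so these 92 include the sen1 mean going from 4.01 to 0.149 points without the lists labelled 32 °C sen1 and sen1rrm3 and to 0.964 with the upper 50% of peaks, and the top2-1 mean turning from -8.56 to 1.78 points without those lists. Genes with at least 50% Rpb1 cover numbered 6 in wild type and 3 with the upper 50% of peaks by score, 2 at 80% of the body and 2 with own peaks only. In rrm3 they went from 5 to 3 at 80% and 2 with own peaks, and in sen1rrm3 from 5 to 2 with the upper 50% and 2 at 80%. Genes gained or lost in sen1rrm3 against rrm3 went from 2 to 1 with the upper 50% and 1 at 80% against 20%, and against sen1 from 0 to 1 with the upper 50%. The median number of genes with a bTMP peak went from 25 to 14.5 with the upper 50% and 15.5 with the upstream region alone, and in widely spaced lists from 38 to 21 with the upper 50%.

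Genes called with sen1 went from 0 to 1 (MRPL4, higher) on the body alone and ranged from 0 to 1 with each pair left out. With rrm3 they went from 0 to 1 with the upper 50% (MRPL32, lower) and to 2 without S-phase wild type (MRPL32 and MRPL17, lower), a setting chosen after seeing the data, as were own peaks and the list exclusions. They ranged from 0 to 3 with each pair left out, with MRPS35 higher and MRPL32 and MRPL17 lower. Where 9 pairs remained, for sen1 or rrm3, the call asked for 6 of them instead of 7 of 10. MRPL4 with sen1, and MRPS35 and MRPL17 with rrm3, had 6 such moves among the 10 pairs. They were thus short of the main rule and could meet the lower number. With top1 the count was 1 with the upper 50% (MRPL25, higher), and with top2-1 it was 1 in lists of equal length (MRP2, lower). The top1 mean of 1.74 points became 0.336 with the upper 50%, -0.651 in lists of equal length and -0.0423 as a log2 ratio to genome cover, and the top2-1 mean became 0.130 on that log2 scale. With each pair left out the means ranged from 2.17 to 4.71 points for sen1, -2.51 to -1.80 for rrm3, 1.36 to 2.11 for top1 and -12.3 to -4.05 for top2-1. The cause of these moves was not tested. No fit with a replicate block was possible because each group had 1 library, and the pairs above are of strains, not of replicates.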

Other observations

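MRP8, which matches the symbol pattern but has no unified ribosomal name in the gene table, had no bTMP peak in any of the 20 lists. Its Rpb1 cover was 9.85% in sen1, 2.12% in sen1rrm3 and 0% in wild type and rrm3. In sen1 the peak had 65 bp in MRP8 and 889 bp in LTV1, the gene upstream, and in sen1rrm3 14 and 770 bp. In wild type and rrm3 the nearest peak ended 51 and 53 bp before MRP8. The MRP8 cover with sen1 was thus the edge of a neighbour's peak. MRPS5, a small-subunit gene, had Rpb1 in sen1 alone, at 49.2% of the body, and MRPL16, a large-subunit gene, in rrm3 alone, at 24.2%. Each rests on 1 list, and neither was tested.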
